A study of Saccharomyces cerevisiae with 16 samples.

Results

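The proteasome subunit genes of the budding yeast Saccharomyces cerevisiae were followed across 16 expression arrays. Genes were taken by name: symbols beginning PRE, PUP, RPN or RPT followed by a number, plus SCL1. The rule found 34 genes among the 5449 S. cerevisiae genes measured, each with 1 probe set. Of these, 14 (PRE, PUP and SCL1) encode the core particle and 19 (RPN and RPT) carry names of the regulatory particle. RPN14 is counted among the 19, although its product is an assembly chaperone and not a subunit of the mature complex. The last gene, RPN4, encodes a transcriptional activator and was kept apart, so "the 33" below means the other members.

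The series compared a wild-type strain (WT) with 7 strains that each carry an aspartate-to-glutamate substitution in 1 subunit of CCT, a ring-shaped chaperonin that folds actin, tubulin and other proteins. By the labels MA1 carried D96E of CCT1, MA2 carried D90E of CCT2, and MA3 carried D91E of CCT3. MA5 carried D117E of CCT5, MA6 carried D89E of CCT6, MA7 carried D96E of CCT7, and MA8 carried D98E of CCT8. All strains shared, WT included, the background alleles prc467, pep4-3, prb1-1122, leu2-3, ura3-52, gal2, trp1 and leu2, and a CBP tag on CCT6. PEP4 and PRB1 encode vacuolar proteases, so every strain, controls included, carried mutations in that second route of protein breakdown. The labels give the tag a KanMX4 marker in WT, KanMX4 beside the D89E substitution in MA6, and URA3 in the other 6 strains, whose substitutions carry KanMX4. Cultures at 30 °C were taken at an optical density of 0.5, and each strain had 2 arrays, written here as WT-1, WT-2 and so on. Nothing in the labels says that the 2 arrays of a strain came from separate cultures, so the tests below measure the spread between these samples, which may be technical.

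The proteasome degrades proteins marked with ubiquitin. Its core particle is a barrel of stacked rings: alpha subunits form the gates at both ends, and beta subunits form the inner chamber, where PRE3, PUP1 and PRE2 carry the caspase-like, trypsin-like and chymotrypsin-like active sites. The regulatory particle caps the barrel. Its base holds the ATPases RPT1 to RPT6, which unfold the substrate, the scaffolds RPN1 and RPN2, and the ubiquitin receptors RPN10 and RPN13, while its lid holds the deubiquitinating enzyme RPN11 and its partners. In yeast the subunit genes are induced together by Rpn4, which binds a shared promoter element, and Rpn4 protein is itself a short-lived substrate of the proteasome.

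The labels were contradicted on several arrays, and every comparison of strains below carries that limit. URA3 (log2 level), which the genotype puts as an intact marker in all strains but WT and MA6, was low on 4 arrays: 8.07 on WT-1, 8.12 on MA5-1, 7.23 on MA2-2 and 7.30 on MA8-1. It was between 11.70 and 12.05 on the other 12, and by URA3 6 arrays opposed their label (WT-2, MA6-1, MA6-2, MA2-2, MA5-1 and MA8-1). The 2 arrays of MA1 also differed from each other in CCT genes, and each was like an array of MA6. CCT2 was at 10.64 on MA1-1 and 10.47 on MA6-1, and at least 12.93 on every other array. CCT3 was at 10.16 on MA1-2 and 10.22 on MA6-2, and at least 12.07 on every other array. Across the 5498 tested probe sets, the array most like WT-1 was MA5-1 (r = 0.94) and the one most like MA1-1 was MA6-1 (r = 0.93), and MA8 was the only label whose 2 arrays were nearest to each other. Values are therefore given array by array before any comparison of strains. They are deposited log2 values made with RMA and are read as relative levels. Levels of different genes are not compared.

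The 33 genes were among the steadier genes on these arrays. The standard deviation of a gene's log2 level over the 16 arrays had a median of 0.066 for the 33, against 0.138 for all tested probe sets, and 31 of the 33 lay below the latter. The 33 are bright, so the 816 tested probe sets in the level range of the members other than RPN14 (mean log2 11.79 to 13.18) were also described. Their median standard deviation was 0.116. The highest array stood over the lowest by a median of 1.20-fold for the 33, 1.42-fold for all tested probe sets and 1.33-fold for those in the level range. A range under 1.3-fold was found for 25 of the 33, against 32% of tested probe sets and 41.9% of those in the level range. The narrowest range was that of RPN7, a lid subunit, at 1.10-fold, from 12.95 on MA2-2 to 13.09 on MA5-1. The widest was that of PRE3 at 1.88-fold, followed by RPN14 at 1.42-fold and RPN10 at 1.36-fold. RPN4 spanned 1.71-fold, with a standard deviation of 0.198.

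**Figure D1:**
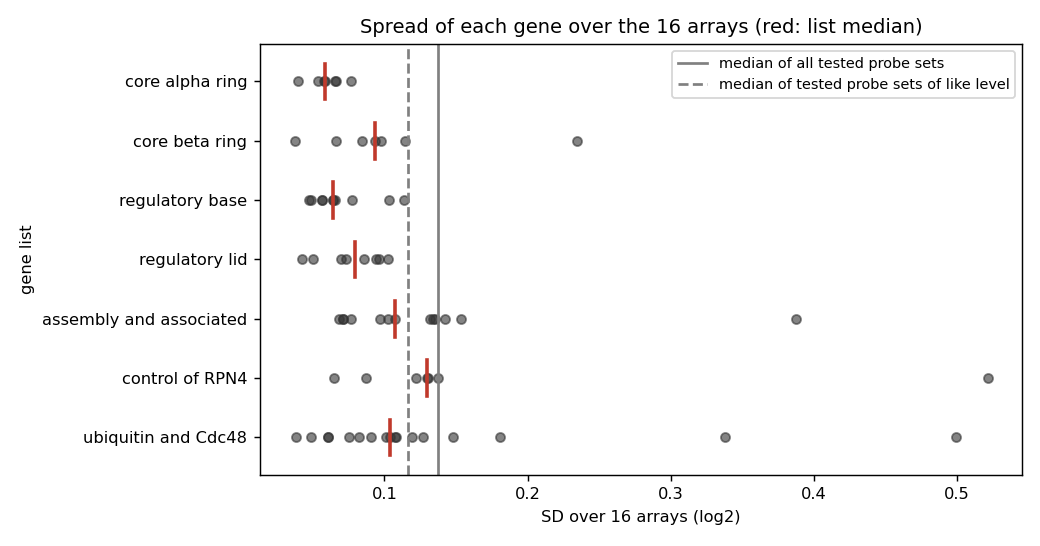
Standard deviation of each gene's log2 level over the 16 arrays (x axis), by gene list (y axis), with 1 point per gene, the list median as a red bar, the median of all 5498 tested probe sets as a solid line and that of the 816 probe sets of like level as a dashed line. List medians were 0.059 for the alpha ring, 0.094 for the beta ring, 0.064 for the base and 0.080 for the lid, all left of both lines, and the single beta ring point far to the right is PRE3.

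By part of the complex, the alpha ring (7 genes) had a median standard deviation of 0.059 and the base (10 genes) one of 0.064. The lid (8 genes) had 0.080 and the beta ring (7 genes) 0.094. The lowest standard deviation among the 33 was that of PRE1 (0.037), a beta subunit without an active site, which lay between 12.61 on MA3-2 and 12.77 on MA8-1. Of the 3 genes for active-site subunits, PRE2 ran from 12.66 on MA3-2 to 13.05 on MA7-2 and PUP1 from 12.32 on MA6-1 to 12.70 on MA5-1, while PRE3 is described below. Among the ATPases, RPT2, whose product helps open the core's gate, had the widest span, from 11.81 on MA2-2 to 12.22 on MA7-2. RPT5 had the narrowest standard deviation of the 6, at 0.048, and lay between 12.20 on MA2-2 and 12.41 on MA7-2. The scaffold RPN1 lay between 13.03 on MA2-2 and 13.22 on MA7-2.

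**Figure D2:**
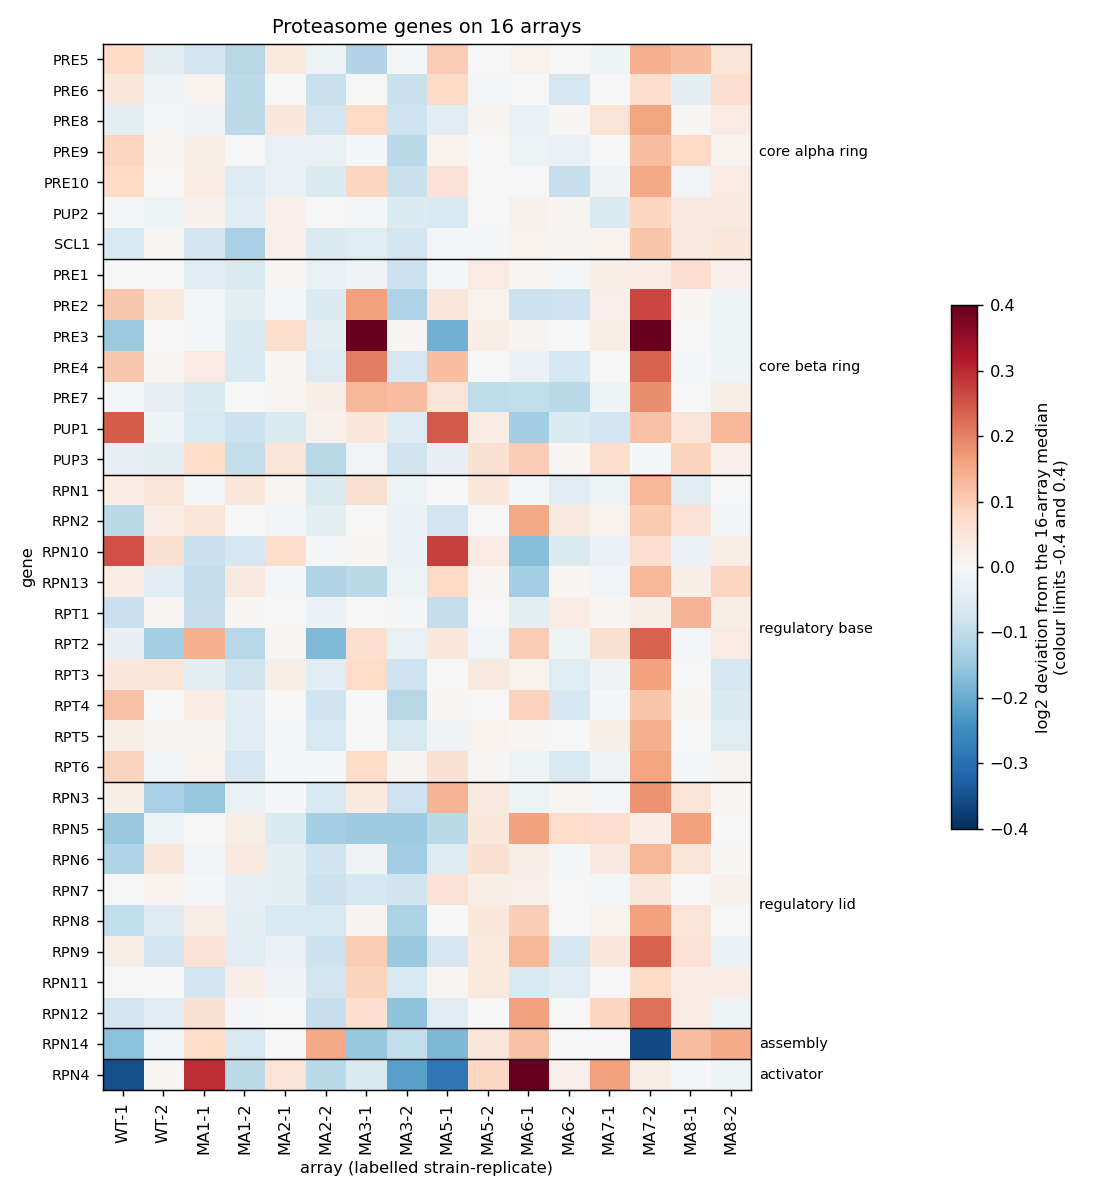
Deviation of each of the 34 genes (rows, by part of the complex) on each of the 16 arrays (columns) from that gene's median over the arrays, in log2 units, in red where above and blue where below, with colours limited at -0.4 and 0.4. The column of MA7-2 is red for 31 of the 33 genes, the columns of MA3-2 and MA2-2 are mostly blue, and RPN4 in the last row is darkest on WT-1, MA5-1, MA1-1 and MA6-1.

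The array that moved most was MA7-2, singled out here after its values were seen. The 33 genes lay a median of 0.134 (log2) above their own 16-array medians on it, and 31 of the 33 were above, while 40.4% of tested probe sets were. The genes not above were PUP3, a beta subunit, and RPN14. MA7-2 gave the highest value of the 16 for 21 of the 33, and for 7.62% of tested probe sets. The shift was spread over the complex, with medians of 0.123 in the alpha ring, 0.185 in the beta ring, 0.133 in the base and 0.149 in the lid. The other array labelled MA7 showed none of it: on MA7-1 the median of the 33 was 0.001, with 18 above and 51.2% of tested probe sets above.

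Lower values gathered on 3 other arrays. On MA3-2 the median of the 33 was -0.078, with 3 above and 40.5% of tested probe sets above. On MA2-2 it was -0.056, also with 3 above, against 50.5% of tested probe sets, and on MA1-2 it was -0.044, with 7 above against 46% of tested probe sets. MA3-2 gave the lowest of the 16 values for 9 of the 33 and for 8.2% of tested probe sets, namely PRE1, PRE2, PRE9, RPN6, RPN8, RPN9, RPN12, RPT3 and RPT4. The lid was the lowest part on that array, at -0.134, and the alpha ring was the lowest on MA1-2, at -0.105. On the other 12 arrays, leaving out MA7-2, the median of the 33 lay between -0.0045 on MA6-2 and 0.029 on MA8-1. Among these, genes above their own median numbered 18 on WT-1 (53% of tested probe sets), 14 on WT-2 (62.3%), 15 on MA1-1 (48.1%), 19 on MA5-1 (54.5%) and 25 on MA5-2 (61%). They numbered 17 on MA2-1 (52.3%), 19 on MA6-1 (51.3%), 11 on MA6-2 (53.5%), 24 on MA8-1 (48.8%) and 22 on MA8-2 (50.3%). The standard deviation of the median of the 33 between arrays of 1 label, pooled over the 8 labels and so including the MA7 pair, was 0.043.

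The core and the regulatory particle did not separate. The median of the 14 core genes minus that of the 19 regulatory genes lay between -0.030 on MA5-2 and 0.028 on MA5-1, which are arrays of 1 label. On MA7-2 the medians were 0.133 for the core and 0.134 for the regulatory particle. On MA3-2 they were -0.076 and -0.081, and on MA2-2 -0.044 and -0.065. The standard deviation of the difference between arrays of 1 label was 0.019. Means in place of medians gave larger differences on the arrays where PRE3 was high, 0.071 on MA3-1 and 0.066 on MA7-2. RPN14, counted with the regulatory genes, was low on both, at -0.150 on MA3-1 and -0.360 on MA7-2. The share of either gene in these differences was not tested.

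**Figure D3:**
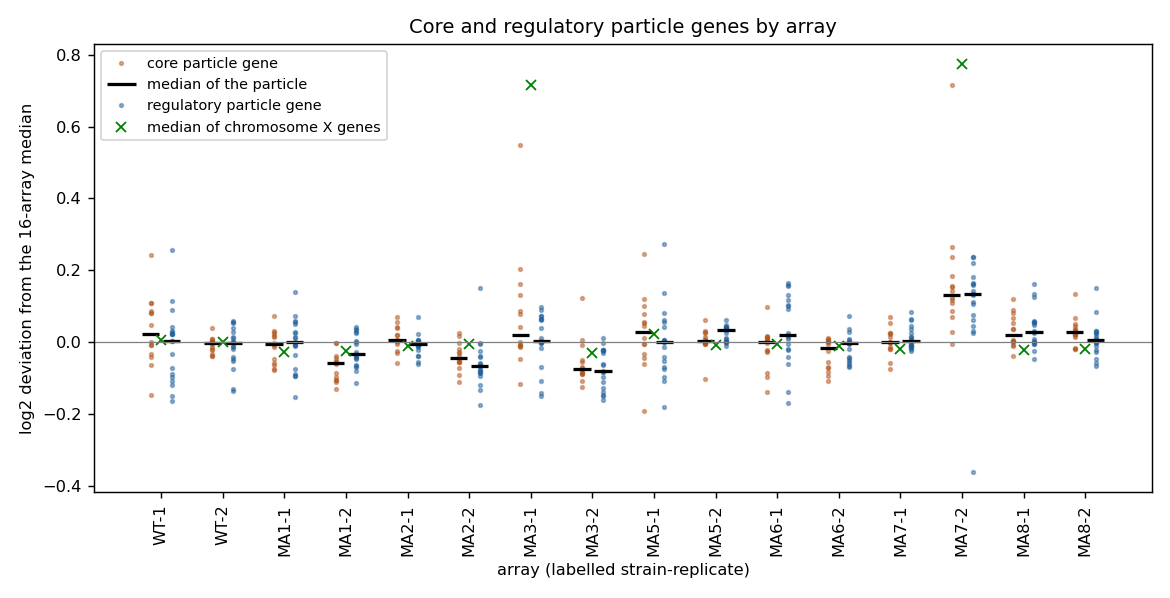
Deviation from the 16-array median (y axis, log2) on each array (x axis), with 1 point per core gene (brown) and per regulatory particle gene (blue), a bar at each particle's median and a green cross at the median of the 317 chromosome X probe sets. The 2 bars lie close together on every array and are highest on MA7-2, the crosses stand at 0.71 on MA3-1 and 0.77 on MA7-2, and the lone brown point near each of these crosses is PRE3.

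Pairs of the 33 genes varied together to a moderate degree over the arrays. The median Pearson correlation was 0.43 over 528 pairs, with 85.4% of pairs above 0, against a median of 0.022 and 51.6% above 0 over all pairs of tested probe sets. Within the core the median was 0.46, within the regulatory particle 0.38, and between them 0.43. MA7-2 carried part of this: without it the median over the 33 was 0.25, with 74.2% of pairs above 0, while that of all tested pairs was 0.018. These correlations share the same 16 arrays and are given as a description. The 34 genes lie on 13 chromosomes, with 6 each on IV and XV and 5 on VII, and only 2 pairs lie within 1 gene of each other: PRE4 with RPN12, a lid subunit (r = 0.46), and RPT4 with RPN8, the partner of RPN11 (r = 0.54).

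PRE3 was the gene that left the group, on the only member locus on chromosome X (YJL001W). Its log2 level was 13.56 on MA3-1 and 13.73 on MA7-2. On the other 14 arrays it lay between 12.82 on MA5-1 and 13.08 on MA2-1, so both values lay above all others, by at least 0.48 (1.39-fold). On the same arrays the 317 tested probe sets of chromosome X lay a median of 0.71 (1.64-fold) above their own medians on MA3-1 and 0.77 (1.71-fold) on MA7-2, and between -0.030 and 0.022 on the other 14. The median of every other chromosome lay between -0.087 and -0.017 on those 2 arrays. PRE3 itself stood at 0.55 (1.46-fold) on MA3-1 and 0.72 (1.64-fold) on MA7-2, and 230 and 187 of the 317 lay above it. Each strain with a high PRE3 array also had an array without it, 13.01 on MA3-2 and 13.04 on MA7-1. In limma, PRE3, chosen after its values were seen, had a log2 change against WT of 0.35 ± 0.21 (SE) in MA3 (adjusted p = 0.79) and 0.45 ± 0.21 in MA7 (adjusted p = 0.53).

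The other genes of the core did not all follow PRE3 on these arrays. On MA3-1 the beta ring as a whole had a median of 0.132 with 5 of 7 genes above, with PRE4 at 12.71 against a median over arrays of 12.51, PRE2 at 12.94 against 12.78, and PRE7 at 12.37 against 12.23. The alpha ring had a median of -0.007 there with 2 of 7 above. The whole set of 33 lay at 0.003 on MA3-1, with 18 above, while 36% of tested probe sets were above. Relative to the median of all tested probe sets on the array, that of the 33 was highest on MA7-2 (0.160) and MA3-1 (0.049). It was lowest on MA3-2 (-0.058) and MA2-2 (-0.057). Without PRE3 the median of the remaining 32 on MA7-2 was 0.133. MA7-2 also had the lowest median over all probe sets of the array, at 6.40. Its difference between the 3′ and 5′ control probe sets of ACT1, a sign of RNA integrity, was 0.23, within the 0.20 to 0.34 of all arrays. The part of these features in the level of the proteasome genes was not tested.

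RPN14 went the other way. This assembly chaperone of the base was at 9.28 on MA7-2, the lowest of 16, where 13% of tested probe sets also had their lowest value, and the next lowest was 9.46 on MA5-1. WT-1, at 9.47, and MA3-1, at 9.49, came next. The highest values were 9.79 on MA2-2 and 9.79 on MA8-2. With a standard deviation of 0.141 it was about as variable as the median tested gene.

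RPN4 varied far more than most of the genes it controls. Its log2 level was 11.53 on WT-1 and 11.89 on WT-2, 12.18 on MA1-1 and 11.78 on MA1-2, 11.94 on MA2-1 and 11.78 on MA2-2, and 11.83 on MA3-1 and 11.67 on MA3-2. It was 11.60 on MA5-1 and 11.97 on MA5-2, 12.31 on MA6-1 and 11.91 on MA6-2, 12.05 on MA7-1 and 11.91 on MA7-2, and 11.88 on MA8-1 and 11.87 on MA8-2. The lowest values were thus on WT-1 and MA5-1 and the highest on MA6-1 and MA1-1, the pairs of arrays that were nearest each other across all genes although their labels differ. In all strains but MA8 the 2 arrays of a label differed by more than 0.1. The same 4 arrays held the extremes of HSP12, a general stress gene, at 10.82 on WT-1, 10.56 on MA5-1, 14.40 on MA1-1 and 14.37 on MA6-1. On MA7-2, where the 33 were highest, RPN4 was only 0.026 above its median.

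**Figure D4:**
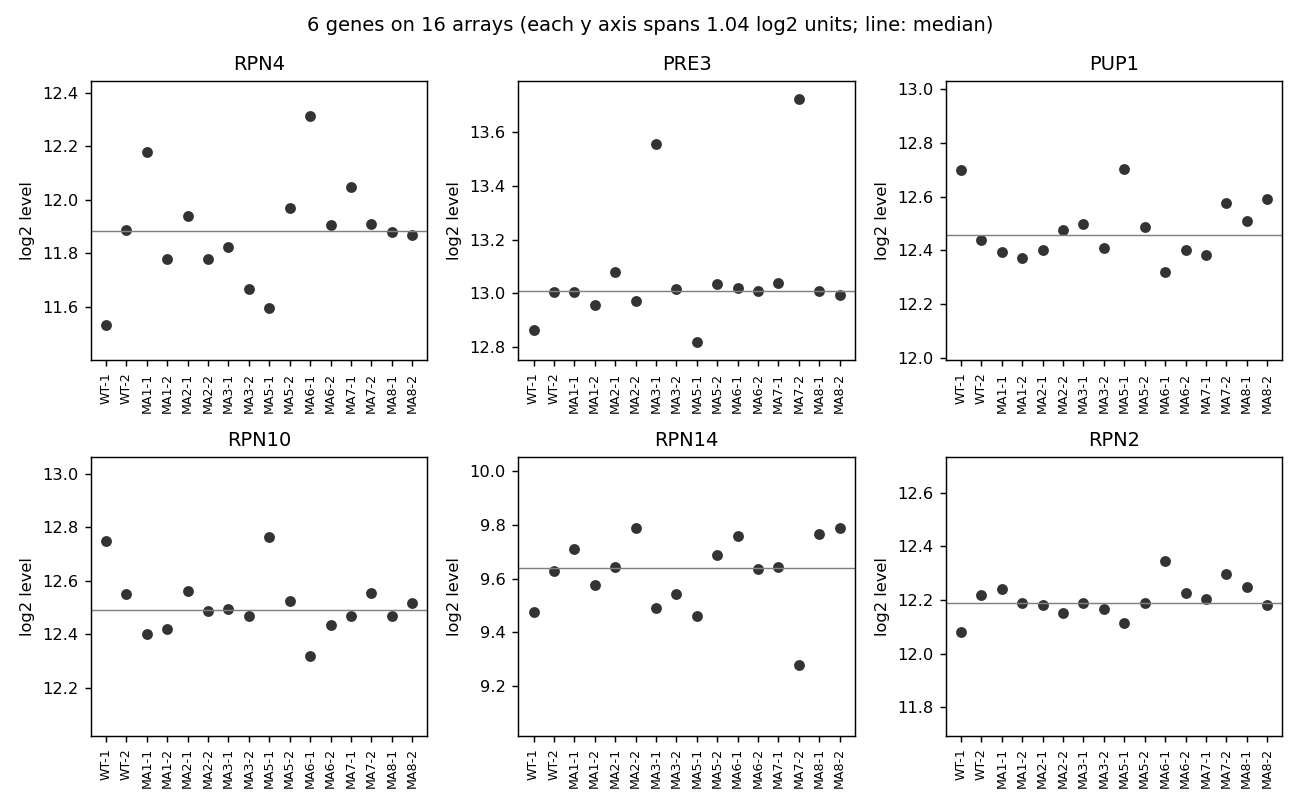
Log2 level (y axis, the same span in each panel) of RPN4, PRE3, PUP1, RPN10, RPN14 and RPN2 on each of the 16 arrays (x axis), with 1 point per array and a line at the gene's median. RPN4 is lowest on WT-1 and MA5-1, where PUP1 and RPN10 are highest, PRE3 is high on MA3-1 and MA7-2, and RPN14 is lowest on MA7-2.

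Over the 16 arrays the Pearson correlation of RPN4 with each of the 33 genes was above 0 for 20 (50.6% of tested probe sets) and had a median of 0.17, against 0.012 for the tested probe sets. With permutation p-values (100000 resamples, two-sided) adjusted by Benjamini-Hochberg over the 33 relations, 6 passed 0.05, of which 4 were positive and 2 negative. A correlation as far from 0 as the weakest of these 6 was reached by 17.7% of tested probe sets on the positive side and 16% on the negative side, so relations of this size were no more frequent among the 33 than among all genes. The arrays of nearest pairs are alike across all genes, so 16 arrays may hold fewer than 16 independent samples. The strongest positive relation was with RPN2, the scaffold of the base (r = 0.83, permutation p = 7e-05, adjusted p = 0.00231; rho = 0.76, permutation p = 0.00089, adjusted p = 0.00979). PUP3, a beta subunit, followed (r = 0.72, permutation p = 0.00135, adjusted p = 0.0164; rho = 0.78, permutation p = 0.00052, adjusted p = 0.00979). The lid subunit RPN5 had r = 0.70 (permutation p = 0.00199, adjusted p = 0.0164; rho = 0.68, permutation p = 0.00491, adjusted p = 0.0405). The lid subunit RPN12 had r = 0.67 (permutation p = 0.00505, adjusted p = 0.0278; rho = 0.77, permutation p = 0.00085, adjusted p = 0.00979).

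The negative relations belonged to RPN10, a ubiquitin receptor, and PUP1, the trypsin-like subunit. RPN10 had r = -0.74 (permutation p = 0.0016, adjusted p = 0.0164), but its rank correlation did not pass (rho = -0.39, permutation p = 0.134, adjusted p = 0.246). PUP1 had r = -0.68 (permutation p = 0.00362, adjusted p = 0.0239) and rho = -0.59 (permutation p = 0.0189, adjusted p = 0.0794). Both rested on a few arrays. RPN10 was at 12.75 on WT-1 and 12.76 on MA5-1, with the next value at 12.56, and it was lowest at 12.32 on MA6-1 and 12.40 on MA1-1. PUP1 was at 12.70 on both WT-1 and MA5-1, with the next value at 12.59, and was lowest at 12.32 on MA6-1. Thus on the arrays with the least RPN4 transcript these subunit transcripts were at their highest. Highest values were common among all genes there: MA5-1 gave the highest value for 17.6% of tested probe sets and WT-1 for 14.8%. Of the 33, MA5-1 gave it for 4, PUP1 and RPN10 included, and WT-1 for 1. Whether the level of RPN4 had a part in these high values was not tested.

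Leaving out the 2 arrays farthest from the median RPN4 level, WT-1 and MA6-1, gave r = 0.62 for RPN2, 0.72 for PUP3, 0.53 for RPN5 and 0.55 for RPN12, and -0.51 for RPN10 and -0.46 for PUP1. Leaving out WT-1, MA5-1, MA1-1 and MA6-1, which leaves 12 arrays, gave 0.38 for RPN2, 0.79 for PUP3, 0.60 for RPN5 and 0.61 for RPN12, but 0.33 for RPN10 and 0.03 for PUP1. The negative relations therefore rest on those arrays, and that of RPN2 does in part, while that of PUP3 kept its size without them. Over these 12 arrays, chosen after the values were seen, 32 of the 33 correlations were above 0 (57.4% of tested probe sets), all but that of PRE7. Their median was 0.38, against 0.086 for the tested probe sets.

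**Figure D5:**
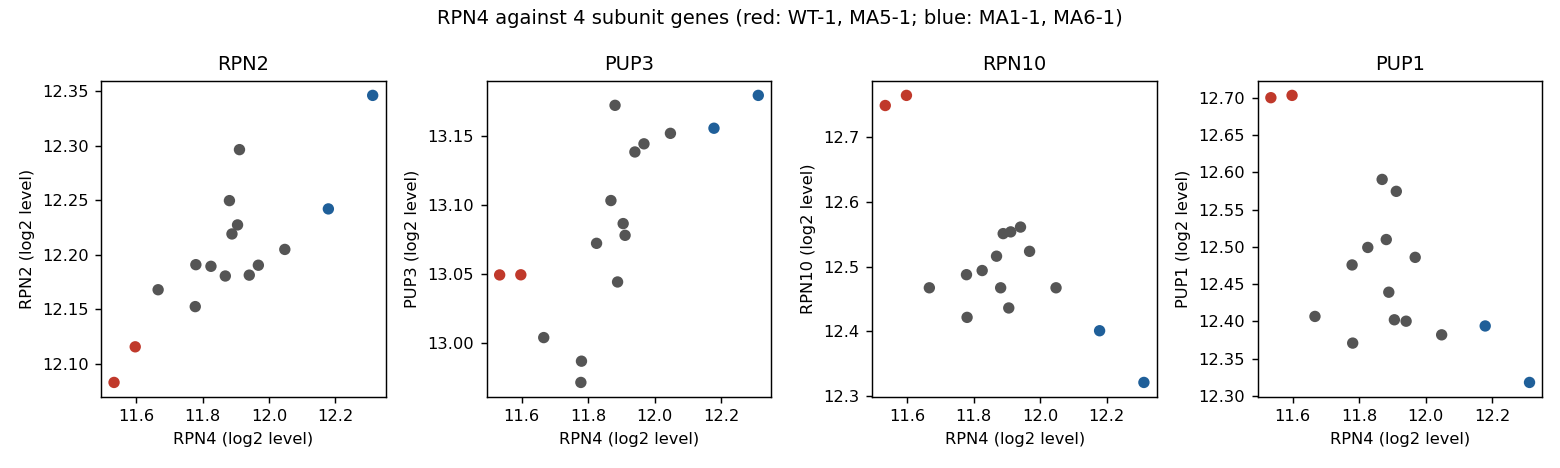
Log2 level of RPN2, PUP3, RPN10 and PUP1 (y axes) against that of RPN4 (x axes), with 1 point per array, WT-1 and MA5-1 in red and MA1-1 and MA6-1 in blue. RPN2 (r = 0.83) and PUP3 (r = 0.72) are higher where RPN4 is higher. Without the red and blue points r is 0.38 for RPN2 and 0.79 for PUP3. For RPN10 (r = -0.74) and PUP1 (r = -0.68) the negative slope comes from those points.

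The comparison of each mutant strain with WT asks whether equivalent substitutions in different CCT subunits change transcript levels alike. In limma, 0 of the 34 members passed an adjusted p of 0.05 in any of the 7 comparisons, in the mean of the 7 mutants against WT, or in the F test among the mutants. Across all 5498 tested probe sets the call was also 0 (0%) in each. The median standard error of a member's log2 change was 0.079. The 7 comparisons share the WT arrays, which differ in URA3, and so they are not independent of each other.

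Before adjustment, a p under 0.05 was reached by 2 members in MA6 (11.5% of tested probe sets), 1 in MA1 (4.13%) and 1 in MA7 (8.97%). It was reached by 0 members in MA2 (0.746%), MA3 (4.69%), MA5 (0.327%) and MA8 (4.06%), by 0 for the mean of the mutants (4.69%) and by 0 for the F test (2.67%). In none of these 9 comparisons was the share of members above that of all tested probe sets. RPN10 was the member with the largest absolute moderated t in MA1, at -0.24 ± 0.09 (SE, adjusted p = 0.61), in MA2, at -0.13 ± 0.09 (adjusted p = 0.94), and in MA6, at -0.27 ± 0.09 (adjusted p = 0.40). Its WT arrays were at 12.75 and 12.55, against 12.40 and 12.42 in MA1, and 12.32 and 12.44 in MA6, so these groups did not overlap. RPN10 also lay below both WT arrays on both arrays of MA3 and of MA8. Such a position was shared by 22.6% of tested probe sets in MA1, 24.2% in MA6, 22.7% in MA3 and 22.7% in MA8. Without WT-1 the RPN10 differences were smaller, at -0.14 in MA1, -0.03 in MA2 and -0.17 in MA6. The leading member was PRE7, a beta subunit, in MA3 (0.15 ± 0.08, adjusted p = 0.79), with 12.37 and 12.35 against 12.22 and 12.20 in WT. It was RPN3, a lid subunit, in MA5 (0.14 ± 0.09, adjusted p = 1.00), RPN12 in MA7 (0.21 ± 0.09, adjusted p = 0.53), and RPN5 in MA8 (0.17 ± 0.08, adjusted p = 0.97). RPN12 stood at 12.09 and 12.23 in MA7 and at 11.94 and 11.97 in WT. RPN5 stood at 12.90 and 12.74 in MA8 and at 12.59 and 12.72 in WT.

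RPN4 was higher in each mutant mean than in the WT mean, and none of these differences passed the test. The log2 change was 0.27 in MA1 (adjusted p = 0.61), 0.15 in MA2 (adjusted p = 0.94), 0.03 in MA3 (adjusted p = 0.97) and 0.07 in MA5 (adjusted p = 1.00). It was 0.40 in MA6 (adjusted p = 0.40), 0.27 in MA7 (adjusted p = 0.56) and 0.16 in MA8 (adjusted p = 0.97), each with a standard error of 0.19 in limma. The mean of the mutants was 0.19 ± 0.14 above WT. The low WT-1 value weighs on all of them: with WT-1 left out, so that WT-2 stands for WT alone, RPN4 in MA2 against WT was -0.03, RPN4 in MA3 against WT -0.14, RPN4 in MA5 against WT -0.11 and RPN4 in MA8 against WT -0.01. Both RPN4 arrays stood above both WT arrays in MA6 and MA7 only, as for 18.4% of tested probe sets in MA6 and 14.2% in MA7.

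As a group, the 33 genes had median log2 changes close to 0 in most strains. The median was -0.029 in MA1 with 11 of 33 above 0 (47.5% of tested probe sets), -0.020 in MA2 with 12 above (44.9%), and -0.031 in MA3 with 12 above (35.8%). It was 0.010 in MA5 with 20 above (49.9%), 0.001 in MA6 with 17 above (49.8%), and 0.041 in MA8 with 22 above (46.6%). It was 0.059 in MA7 with 29 above (43.3%). After quantile normalization the MA7 median was 0.033 with 25 above, and the MA8 median was then also 0.033. The MA7 value came from MA7-2: without this array the median was 0.0004, and with this array alone it was 0.119. In MA7 the core had a median of 0.050 with 13 of 14 above 0, and the regulatory particle 0.066 with 16 of 19 above 0. In MA6 the medians were -0.031 for the core and 0.036 for the regulatory particle. Its parts differed there: the lid had a median of 0.053 with 7 of 8 genes above 0, and the base -0.050 with 3 of 10. The lid median lay above the base median in every strain, but all 7 comparisons share the WT arrays. The difference between lid and base was not tested.

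Groups that did not overlap at all were also counted. Both arrays of the mutant lay above both WT arrays for 12 of the 33 in MA7 (14.2% of tested probe sets), for 13 in MA8 (14.6%) and for 10 in MA6 (18.4%). The counts were 6 in MA5 (6.53%), and 3 each in MA1 (9.04%), MA2 (8.04%) and MA3 (4.78%). Both lay below both WT arrays for 0 of the 33 in MA7 (26%), for 6 in MA8 (22.7%) and for 12 in MA6 (24.2%). The counts below were 9 in MA1 (22.6%), 9 in MA2 (17%), 5 in MA3 (22.7%) and 1 in MA5 (5.46%). In MA6 the genes above were PRE3, PUP2, PUP3, SCL1, RPN2, RPN5, RPN8, RPN12, RPN14 and RPT2. Those below were PRE2, PRE4, PRE7, PRE9, PRE10, PUP1, RPN1, RPN10, RPN11, RPT3, RPT5 and RPT6. Core and regulatory particle genes were thus on both sides. For 6 of the 33, 1 or more mutants lay above both WT arrays and 1 or more others below both, a pattern shown by 10.7% of tested probe sets.

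Genes that work with the proteasome were read from 3 lists, for 37 genes in all, and none passed the test in any comparison. Of 13 assembly and associated factors, UMP1, which matures the core, ran from 11.65 on MA3-2 to 12.21 on MA7-2. SEM1, a lid component, ran from 11.37 on MA3-2 to 11.92 on MA7-2, and ECM29, which ties core and regulatory particle together, from 10.54 on MA2-2 to 11.12 on MA7-2. UBP6, a proteasome-bound deubiquitinating enzyme, was highest on MA7-2 at 12.15. These were the 4 of the 13 with their highest value on MA7-2, as 21 of the 33 and 7.62% of tested probe sets had. Over the 3 lists together, 8 of the 37 genes were highest there. The assembly chaperones NAS2 (10.51), NAS6 (12.60) and PBA1 (10.88) were highest on MA3-1, and HSM3, like RPN14 a chaperone of the base, was lowest on MA7-2 at 9.12. TMA17, an assembly chaperone induced by stress, had the widest span of the list, from 9.83 on WT-1 to 11.25 on MA6-1, with 9.95 on MA5-1 and 11.11 on MA1-1.

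Of 7 genes that control RPN4, PDR3, an activator of RPN4 transcription, was low on 4 arrays, at 9.95 on MA5-1, 9.98 on WT-1, 10.48 on MA3-1 and 10.48 on MA7-2, and between 11.15 and 11.48 on the other 12. PDR1, its paralog, was lowest on WT-1 at 11.26. YAP1 (11.01) and HSF1 (10.40), 2 more activators of RPN4, were highest on MA7-2. UBR2 and MUB1, which mark Rpn4 protein for breakdown, ran from 8.72 on MA3-1 to 9.13 on MA2-2 and from 9.29 on WT-1 to 9.70 on MA1-1. Of 17 genes of ubiquitin and the Cdc48 segregase, the polyubiquitin gene UBI4 ran from 11.03 on WT-1 and 11.10 on MA5-1 to 12.68 on MA1-1 and 12.83 on MA6-1. The ubiquitin-conjugating enzyme gene UBC5 was likewise low on WT-1 (9.89) and MA5-1 (9.99) and high on MA6-1 (11.05) and MA1-1 (11.12). Its near copy UBC4 and the segregase CDC48 were highest on MA7-2, at 13.71 and 13.72. RAD23, a shuttle that brings ubiquitinated proteins to the proteasome, was highest on WT-1 at 12.48 and next on MA5-1 at 12.37, the arrays where RPN10 and PUP1 were highest.

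The genes outside the set whose pattern over the 16 arrays was most like the median of the 33 were named by rank of Pearson correlation, as a description. They were ECM29 (r = 0.87), STI1 (0.86), SIS1 (0.85), YAE1 (0.85), UBC4 (0.83), HYR1 (0.83), MBF1 (0.83), CUZ1 (0.82), YTA12 (0.82) and CAP1 (0.81). STI1 encodes a partner of Hsp90 and SIS1 a partner of Hsp70. YTA12 encodes a subunit of a mitochondrial protease, and CAP1 a subunit of the actin capping protein. Without MA3-2 and MA7-2, the arrays with the lowest and highest median of the 33, the correlations lay between 0.51 for YAE1, which is on chromosome X, and 0.83 for CAP1. All 10 were highest on MA7-2, where STI1 reached 13.76 and SIS1 13.01.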

How the data were processed

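Total RNA of 16 samples was hybridized to Affymetrix Yeast Genome 2.0 arrays, 1 array each. The deposited table holds a log2 level for each probe set, made by the authors with Partek and RMA per the submitters' processing notes, with no version given. RMA is meant to set the arrays to a common distribution, which removes a shift of every transcript at once. In the deposited values the median over all probe sets still ran from 6.40 on MA7-2 to 7.12 on MA6-1. That over the tested probe sets ran only from 10.46 on MA3-1 to 10.50 on MA6-1. Some differences between whole arrays thus remained. The number of arrays limits the precision.

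Symbols came from the platform annotation, brought up to date through the R64 gene table, which changed 12 of them. Tests ran on the 5498 probe sets with a single S. cerevisiae gene. A further 1746 belonged to S. pombe, 1 named several genes and 3683 were unlisted. A gene took its probe set of highest mean. Chromosomes and neighbours come from the same table.

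The model in limma 3.58.1 (R 4.3.3) had a mean for each strain over all 16 arrays. Its residual degrees of freedom were 8 and its prior ones 2.02. Tests were two-sided, adjusted by Benjamini-Hochberg over the 5498, with calls at an adjusted p under 0.05. The fit was tested on simulated data. Deviations from each gene's median over arrays, correlations and permutations used Python 3.11.15 with numpy 2.4.6, pandas 2.3.3 and scipy 1.17.1.

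The members, lists and rules were chosen with earlier results of these data known. The rule tests RPN4 in each mutant and the member with the largest absolute moderated t, gives any member's or list gene's levels, and names the 10 most similar other genes. Groups come from the sample titles, and no array was moved. The main fit did not pair samples by replicate number. Alternatives were other normalizations, probe set filters, variance models, a replicate block, fits to only the strains compared, and omitted arrays. Sequences were not used here.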

Additional observations from a re-analysis of the deposited data

Results flagged for a closer look

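For 6 of the 33 genes, 1 or more strains had both arrays above both WT arrays while 1 or more others had both below, as for 10.7% of all tested probe sets. Those strains were not tested against each other in pairs, and the limma F test among the 7 mutants called 0 members (0 at an unadjusted p under 0.05). The value given is the distance in log2 between the highest and the lowest strain mean among them.

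PRE1, a beta subunit, was above WT in MA7 and MA8 and below in MA1 and MA3, with a distance of 0.0956. PRE7, also a beta subunit, was above in MA2, MA3 and MA8 and below in MA6 (0.2301). SCL1, an alpha subunit, was above in MA6, MA7 and MA8 and below in MA1 (0.1662). RPN7 of the lid was above in MA5 and below in MA1, MA2 and MA3 (0.1168), and RPN11, the deubiquitinating enzyme, was above in MA5 and MA8 and below in MA2 and MA6 (0.0799). The ATPase RPT5 was above in MA7 and below in MA1, MA2, MA3, MA6 and MA8 (0.1176).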

How the results depend on the processing

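The number of members called was 0 in all 105 refits of a comparison with another setting or without several arrays, and in all 144 refits that left out 1 array. The members' median deviation on MA7 replicate 2 was 0.0981 after quantile normalization and 0.1413 with arrays centred on the tested probe sets. Over all tested probe sets the count moved from 0 to 1 without the 6 arrays that oppose their label, in MA1, MA2, MA3, MA5, MA7, MA8 and the mean of the mutants, and that gene was URA3 itself. MA6 has no array left in that setting, which was chosen by URA3 and keeps both MA1 arrays, although these differ in CCT2 and CCT3. The median change of the 33 in MA7 fell to 0.0004 without both arrays of raised chromosome X, which were left out together after the data were seen. RPN4 in MA3 against WT turned to -0.0447 in that setting. Leaving out each array in turn gave RPN4 ranges of -0.0291 to 0.3255 in MA2, -0.1426 to 0.2121 in MA3, -0.1136 to 0.2568 in MA5 and -0.0138 to 0.3409 in MA8, and, with no turn of sign, of 0.0688 to 0.4674 in MA1, 0.1941 to 0.6007 in MA6 and 0.0909 to 0.4455 in MA7. RPN10 ranged from -0.337 to -0.1394 in MA1, -0.2241 to -0.0265 in MA2 and -0.3696 to -0.172 in MA6, RPN3 from 0.0627 to 0.2167 in MA5, RPN12 from 0.1416 to 0.278 in MA7, and RPN5 from 0.0847 to 0.2475 in MA8. PRE3 ranged from 0.0793 to 0.623 in MA3 and from 0.1015 to 0.7901 in MA7. The causes of these turns were not tested. The median of the 33 in MA3 ranged from -0.0626 to 0.0241 and that in MA7 from 0.0004 to 0.1191. The replicate block left the count of members called at 0 and that of all probe sets at 0 in every comparison. The replicate numbers gave correlations of -0.663 to 0.929 over 28 pairs of strains, with 7 above 0.1. The numbers thus did not pair all strains alike. The correlations were highest for WT with MA5 and for MA1 with MA6, at 0.93 each. Outside MA8, most arrays were nearest to an array of their own number, but MA3-1 and MA7-2 were nearest to each other. Whether arrays of 1 number shared any handling was not tested.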
